A study of Homo sapiens with 18 samples.

Results

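The 10 genes described here are hosts of small nucleolar RNAs (snoRNAs): GAS5, SNHG1, SNHG5, SNHG8, SNHG12, SNHG15, SNHG16, ZFAS1, EPB41L4A-AS1 and TAF1D. They were chosen by name, 10 of 38151 RefSeq protein-coding and lncRNA genes on chromosomes 1 to 22 and X, and every peak touching a gene or the 5 kb on either side of it was taken. RefSeq annotates 9 of them as lncRNA genes and TAF1D as protein-coding, and 43 snoRNA genes lie inside them. The study profiled RNA polymerase II (Pol II) by chromatin immunoprecipitation and sequencing (ChIP-seq) in INTS11-AID cells, which are HCT116 colon cancer cells whose INTS11 protein carries an auxin-inducible degron, so that auxin (IAA) triggers its destruction. INTS11 is the endonuclease of Integrator, which cuts nascent Pol II transcripts. Separate libraries used antibodies to Pol II and to 2 marks on the repeats of its tail, phosphorylated tyrosine 1 (Tyr1P) and phosphorylated serine 2 (Ser2P). Each antibody had 2 libraries labelled IAA and 2 labelled Control, all from the tagged line. A further 4 Pol II libraries carry no replicate number and are labelled IAA+EGF, EGF, IAA and Control, with 1 library each, and 2 input libraries were sequenced without immunoprecipitation. The labels' protocols give all samples a single text, with 14 h in serum-free medium, 500 µM IAA for 1 h, EGF at 100 ng per µl for 30 min and 2000 U of interferon beta for 1 h, so the treatment of a library is known from its title alone. For the unnumbered libraries labelled IAA and EGF, the title and the file name give different treatments, and they are called by their labels. No label says that replicates came from separate cultures, so their spread may be technical.

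A snoRNA host gene carries its snoRNAs in introns. The host transcript is spliced, and the excised intron is trimmed down to the mature snoRNA, so Pol II has to transcribe the intron that holds a snoRNA for it to be made. Box C/D snoRNAs (named SNORD) guide ribose methylation of ribosomal RNA, and box H/ACA snoRNAs (named SNORA) guide pseudouridylation. Many hosts are strongly transcribed from terminal oligopyrimidine promoters, in which transcription starts at a C within a run of pyrimidines, and many spliced lncRNA hosts code for no long protein and are short-lived. On protein-coding genes, Ser2P is low at the start, builds up along the gene and is known to be high past the polyadenylation site, where Pol II slows before it terminates.

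The promoters of the 6 lncRNA hosts on which the results below turn are shown first. SNHG5, SNHG12 and ZFAS1 share a TATA-box word, SNHG16 is the host with a higher Pol II place with IAA, SNHG1 has the largest difference in Pol II summit, and SNHG8 has the largest Ser2P difference past the gene end. Each line holds 50 bases before and 50 bases after the RefSeq start on the gene's own strand of GRCh38.p14, from RefSeq's promoter table. Capitals mark the TATA-box word TATATAA, wherever it stands in the window, and the word CTTT (1 C followed by pyrimidines) within 20 bases of the start.
SNHG5: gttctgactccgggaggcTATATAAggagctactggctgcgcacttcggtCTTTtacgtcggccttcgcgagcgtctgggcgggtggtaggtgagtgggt
SNHG12: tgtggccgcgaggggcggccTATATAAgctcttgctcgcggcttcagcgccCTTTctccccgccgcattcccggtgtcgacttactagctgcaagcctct
ZFAS1: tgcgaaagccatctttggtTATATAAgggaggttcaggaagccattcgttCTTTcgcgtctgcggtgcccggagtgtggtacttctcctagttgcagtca
SNHG16: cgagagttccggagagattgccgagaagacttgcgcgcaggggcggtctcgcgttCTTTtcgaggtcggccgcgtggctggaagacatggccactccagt
SNHG1: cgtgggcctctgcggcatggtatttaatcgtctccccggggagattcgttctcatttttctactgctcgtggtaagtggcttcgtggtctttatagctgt
SNHG8: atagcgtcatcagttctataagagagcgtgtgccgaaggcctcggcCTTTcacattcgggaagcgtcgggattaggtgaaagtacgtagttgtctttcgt
The windows are chr6:85678684-85678783 for SNHG5, chr1:28581824-28581923 for SNHG12, chr20:49278592-49278691 for ZFAS1, chr17:76557714-76557813 for SNHG16, chr11:62855836-62855935 for SNHG1 and chr4:118278712-118278811 for SNHG8. SNHG16, SNHG8 and ZFAS1 lie on the plus strand and the other three on the minus strand. TATATAA stood on the gene strand between 50 bases before and 50 bases after the start in 3 of the 9 members searched (SNHG5, SNHG12 and ZFAS1), against 0.842% of 27195 RefSeq promoters. On the opposite strand it stood in 1 member, ZFAS1, where the word there overlaps the one on the gene strand, against 0.382% of promoters. CTTT stood within 20 bases of the start on the gene strand in 6 of 9 members (the 5 marked above and TAF1D), against 15.5% of promoters, and on the opposite strand in 0 of 9, against 12.8%. The 2 words do not overlap each other. SNHG15 has no entry in the table. GAS5 and EPB41L4A-AS1 were searched at their RefSeq starts, although their summits in the replicated Pol II libraries lay 1084 bp to 1092 bp and 388 bp to 423 bp inside.

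The 16 immunoprecipitated lists held 425 peaks in the members' windows. Of their summits 139 lay within 500 bp of the gene start, 64 in the gene body beyond that, 201 in the 5 kb past the gene's far end and 15 upstream, and 6 peaks had a summit outside the window. None of the 425 peaks shared a base with an input peak, and the input lists held 0 peaks in these windows. The lists ranged from 15420 to 99476 peaks, and the depth estimated from them, since they hold no read totals, ranged from 2.95 to 13.6 fragments per kb. In the line's own genes EPCAM, KRT8, KRT18 and CDH1, a peak lay at a gene end in all 12 Pol II and Tyr1P libraries, whereas VIL1, another gut epithelial marker, had none. The markers of other tissues PTPRC, NEUROD1 and ALB had such a peak in 0 libraries, SYN1 and CD3E in 1 and HBB in 2. The degron removes a protein, so no value here checks the loss of INTS11. Comparisons below use the share of a zone covered by peaks. The start zone is the 500 bp on either side of the gene start, and the downstream zone is the 5 kb past the far end. With 2 libraries against 2, a two-sided exact permutation test cannot give less than p = 0.333, which is the value for every member whose groups do not overlap. A member is therefore called higher or lower where both IAA libraries lie on the same side of both Control libraries, and the share of all genes so called is given beside the count.

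The start zone of all 10 hosts was covered more by Ser2P peaks in both IAA libraries than in both Control libraries, while the zone past the gene end was covered less in 7 and more in 0. The Ser2P peak past the end outranked the one at the start in 4 hosts in both IAA libraries, and in 8 hosts in both Control libraries. Higher cover at the start was common to most genes, whereas lower cover past the end was seen in few genes.

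**Figure D1:**
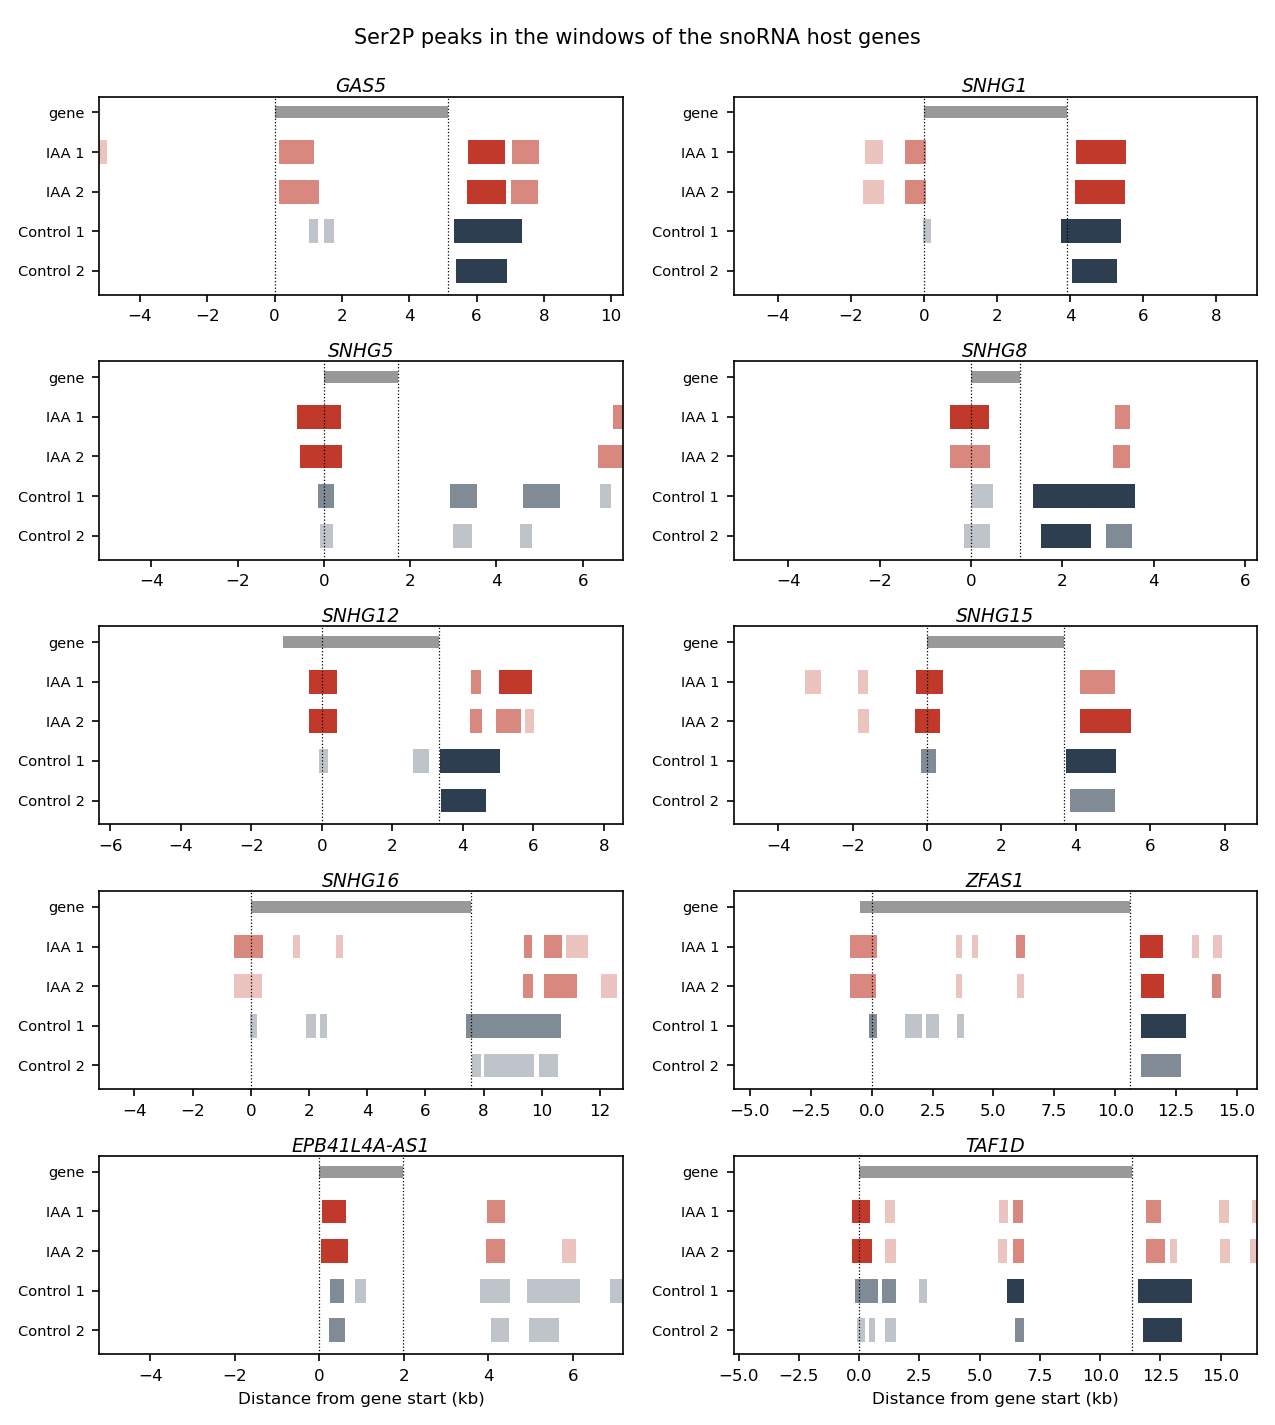
Ser2P peaks in each host's window by library, against distance from the gene start in kb. The grey bar is the annotated gene and dotted lines mark its start and far end; the darkest boxes are peaks in the top 5% of their list, the middle shade those in the top 20%, and the palest the rest. Past the gene end of SNHG8, SNHG12 and TAF1D, the leading peaks are narrower in IAA than the broad dark ones in Control.

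At SNHG8, a short lncRNA gene with SNORA24 in its intron (chr4:118278762-118279823, plus strand), Ser2P peaks covered 6.52% and 7.40% of the downstream zone in the IAA libraries, against 44.9% and 33.5% in Control. The only peak with its summit in that zone in IAA lay 2270 bp and 2233 bp past the end, was 326 bp and 370 bp wide and ranked 11839 of 99476 and 12583 of 88987. In Control the leading peak lay nearer, 1111 bp and 1090 bp past the end, was 2244 bp and 1100 bp wide and ranked 569 of 37442 and 721 of 15420. Over the SNHG8 start zone the order was opposite, with 84.8% and 87.1% covered in IAA and 47.1% and 58.5% in Control.

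TAF1D, which encodes a subunit of the SL1 factor of RNA polymerase I and holds 8 snoRNA genes (chr11:93730194-93741495, minus strand), had 20.7% and 31.6% of its downstream zone covered in IAA, against 44.6% and 32.3% in Control. The shares are close for replicate 2 of each group (31.6% and 32.3%), so this call rests on a narrow gap. The TAF1D downstream peak was 602 bp and 786 bp wide in IAA and ranked 9543 and 9093, or 9.59% and 10.2% down the lists. In Control it was 2231 bp and 1617 bp wide and ranked 266 and 469, or 0.71% and 3.04% down these shorter lists. The start peak ranked 1041 of 99476 and 610 of 88987 in IAA, against 4119 of 37442 and 5665 of 15420 in Control. Inside the gene, all 4 libraries had a summit between 201 bp and 271 bp from SNORA40, and the IAA lists each held another on the side of the start, 242 bp and 327 bp from it.

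SNHG12 hosts 4 snoRNA genes (chr1:28578538-28582983, minus strand, with its RefSeq promoter start 1110 bp inside the outer end). Ser2P covered 80.7% and 81.2% of its start zone in IAA, against 26.2% and 0% in Control. Its start peak ranked 645 and 1209 in the IAA lists. Past the end, 2 and 3 separate peaks stood in IAA, and 24.0% and 25.5% of the zone was covered. The leading one lay 1944 bp and 1919 bp out with ranks of 4721 and 8333, or 4.75% and 9.36% down the lists. In Control 1 peak stood there, 1027 bp and 1031 bp out with ranks of 429 and 412, and 34.0% and 25.6% was covered. The IAA and Control shares of SNHG12 are close for replicate 2 of each (25.5% and 25.6%), so this call, too, rests on a narrow gap.

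The other 4 hosts with less Ser2P past the end were SNHG5, SNHG16, ZFAS1 and EPB41L4A-AS1. SNHG5 lies at chr6:85677007-85678733, SNHG16 at chr17:76557764-76565348, ZFAS1 at chr20:49278178-49289260 and EPB41L4A-AS1 at chr5:112160526-112162501. At SNHG5 the downstream zone was covered over 0.68% and 7.48% in IAA and 35.1% and 14.3% in Control, and no summit of either IAA library lay in it. The nearest IAA summits lay just past its 5 kb edge, 5166 bp and 5125 bp from the gene end, in peaks 674 bp and 1052 bp wide, so the SNHG5 values depend in part on that edge. SNHG16 had 32.7% and 40.4% in IAA against 61.5% and 53.2% in Control, the highest Control values of any host. EPB41L4A-AS1 (SNORA13) had 8.36% and 15.7% in IAA against 41.0% and 22.3% in Control. ZFAS1 (3 SNORD12 genes) had 30.9% and 26.2% in IAA against 36.6% and 33.1% in Control. The groups did not overlap at any of the 4 genes, and they lay closest at ZFAS1.

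In the remaining 3 hosts the Ser2P groups overlapped past the gene end. GAS5, which holds 11 snoRNA genes (chr1:173863901-173869045, minus strand), had 38.1% and 38.9% of the downstream zone covered in IAA and 40.1% and 29.8% in Control. Its downstream peak was among the strongest of every list, ranking 148 of 99476 and 218 of 88987 in IAA, against 173 of 37442 and 27 of 15420 in Control. SNHG1 (9 snoRNA genes, chr11:62851978-62855885, minus strand) had 26.9% and 27.5% in IAA and 29.4% and 24.7% in Control. SNHG15 (SNORA9, chr7:44983023-44986696) had 18.9% and 27.4% in IAA and 26.96% and 24.3% in Control. RefSeq's promoter table gives no strand for SNHG15, so it was read from its higher-coordinate end.

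Over all 10 hosts, 7 were lower and 0 higher past the end, against 4.41% lower and 48.4% higher of 12583 genes with a peak in that zone in any of the 4 libraries. Among the genes that could be called lower, those with the zone covered in both Control libraries, the share was 13.1%. The median difference, IAA minus Control, was −9.32 percentage points over the hosts and 5.07 over all genes tested. The median Control cover there was 33.2% over the hosts and 4.79% over all genes, so the hosts had more room to fall. No share was taken among genes covered as much in Control. In the start zone 10 of 10 hosts were higher and 0 lower, against 74.5% and 2.02% of 13704 genes, with a median difference of 46.5 points over the hosts and 26.4 over all genes. The median Control cover at the start was 18.7% over the hosts and 39.2% over all genes, so the hosts had more room to rise. Higher cover at the start was thus common among all genes, and lower cover past the end was not.

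**Figure D2:**
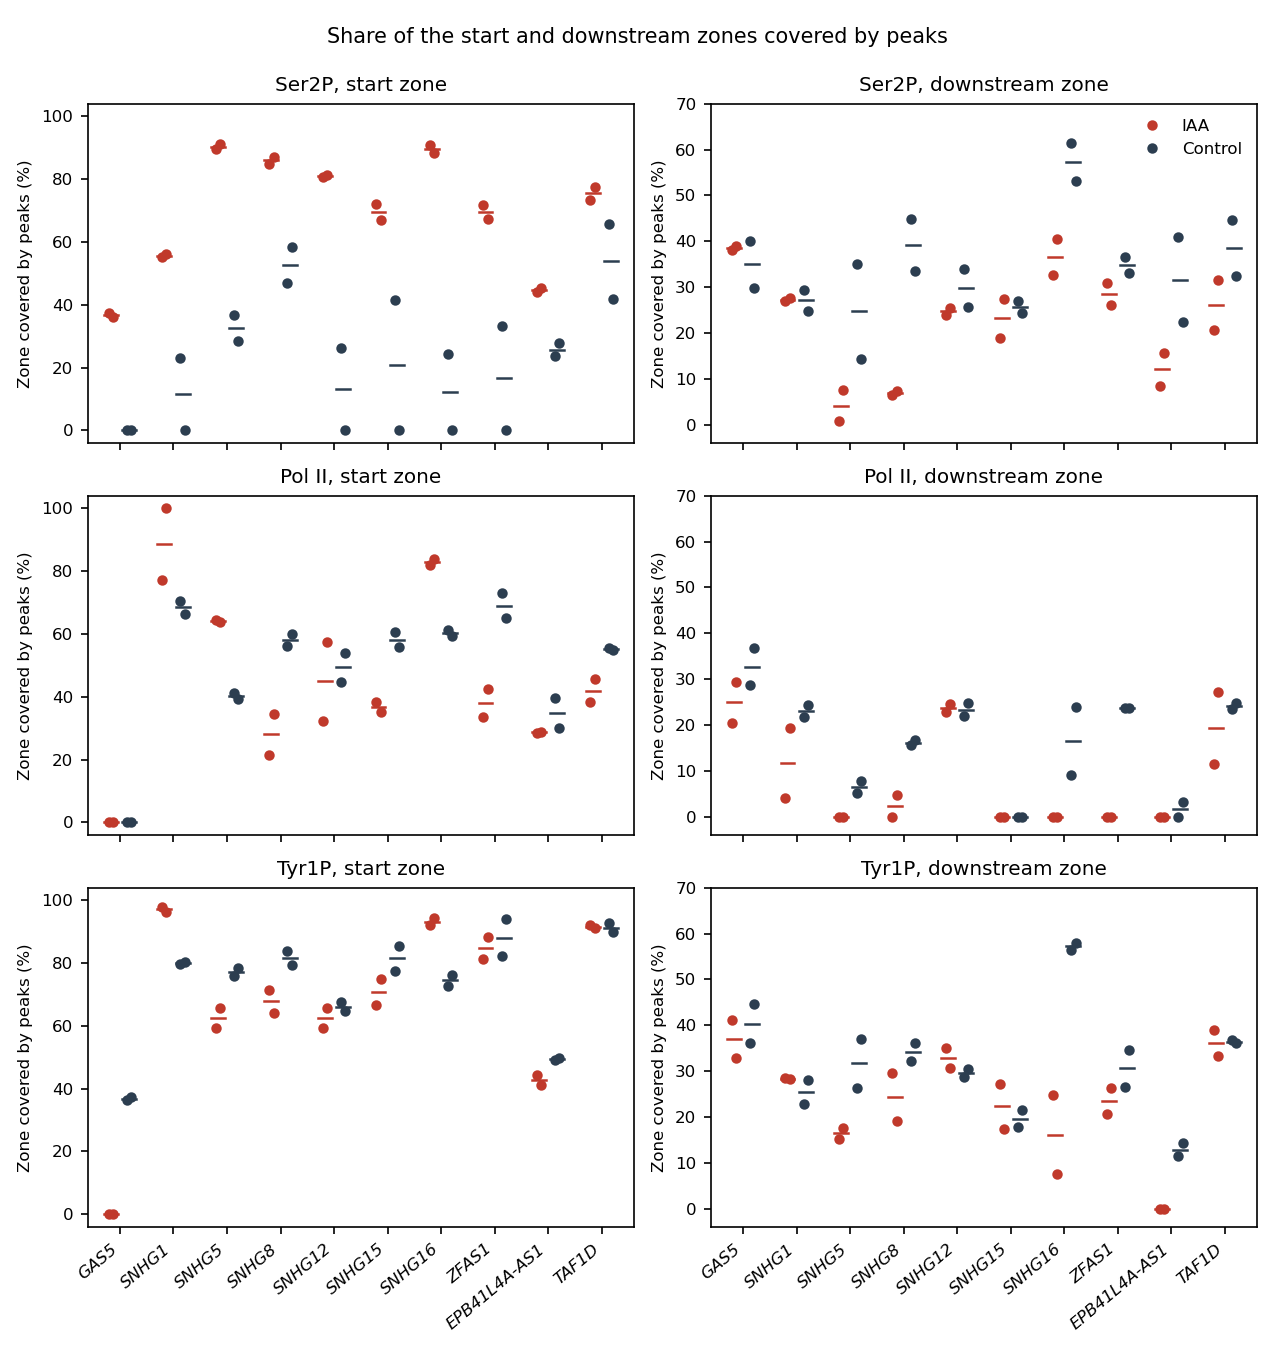
Share of the start zone (left) and downstream zone (right) covered by peaks, in percent, for each host and antibody. Red points are IAA libraries and dark points Control libraries, and the lines are means of 2. All Ser2P start-zone values are higher in IAA, and 7 of 10 hosts have both IAA values below both Control values in the Ser2P downstream zone.

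The Ser2P lists were of unequal length, with 99476 and 88987 peaks in IAA and 37442 and 15420 in Control, and the estimated depth was 9.32 and 10.5 fragments per kb in IAA and 13.6 and 3.30 in Control. Their part in these counts was not tested beyond the following. With every list cut to its 15420 highest-ranked peaks, 7 hosts were lower past the end and 9 higher at the start. No share of all genes was taken with the cut lists, and the shares above are from the full lists. Leaving out the shallow Control replicate 2 gave 9 hosts lower past the end and 10 higher at the start. These 2 counts could not fall, since fewer libraries then had to be apart, so they do not test the part of depth. Other annotated genes overlap the downstream zone of 7 hosts: GAS5-AS1 at GAS5, PRSS12 at SNHG8, TRNAU1AP at SNHG12, MYO1G at SNHG15, ST6GALNAC2 and LOC122455342 at SNHG16, EPB41L4A at EPB41L4A-AS1 and CEP295 at TAF1D. Signal of these genes and of the hosts cannot be told apart there, whereas no annotated protein-coding or lncRNA neighbour overlaps the zone of SNHG1, SNHG5 or ZFAS1. At the start, the Ser2P summits of ZFAS1 in IAA lay at −637 bp and −581 bp from the start, beside the nearer end of ZNFX1 at −585 bp, and those of SNHG1 lay at −328 bp and −130 bp, beside the nearer end of SLC3A2 at −224 bp. The GAS5 start zone, with 37.4% and 36.0% covered in IAA and 0% in both Control libraries, is overlapped by ZBTB37 on the other strand, whose own start lies 665 bp inside GAS5. The start zones of SNHG1 and TAF1D also hold an end of SLC3A2 and of C11orf54 (at −177 bp), and EPB41L4A spans that of EPB41L4A-AS1.

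The order of the start and downstream peaks was then read within each list, with a missing peak placed below a present one. In both IAA libraries the downstream peak ranked above the start peak in 4 of 10 hosts (GAS5, SNHG1, SNHG16 and ZFAS1), against 17.9% of 9940 genes. In both Control libraries it did so in 8 of 10 hosts, against 21.9%. Only 4 hosts had a start peak in the shallow Control replicate 2, and SNHG12 and SNHG15 are among those without one. The start peak had taken the lead with IAA in 4 hosts, SNHG8, SNHG12, SNHG15 and TAF1D, against 5.16% of all genes, or 23.6% of the 2174 genes with the downstream peak ahead in both Control libraries. For SNHG15 the lead in IAA replicate 2 was slight, with ranks of 3189 at the start and 3217 downstream. SNHG5 and EPB41L4A-AS1 had the start peak ahead in all 4 libraries, and 0 hosts changed the other way (1.28% of genes). Of the 4 hosts with a start peak in all 4 libraries, SNHG8, EPB41L4A-AS1 and TAF1D held a higher start place with IAA (29.7% of 8676 genes) and 0 a lower one (29.6%).

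**Figure D3:**
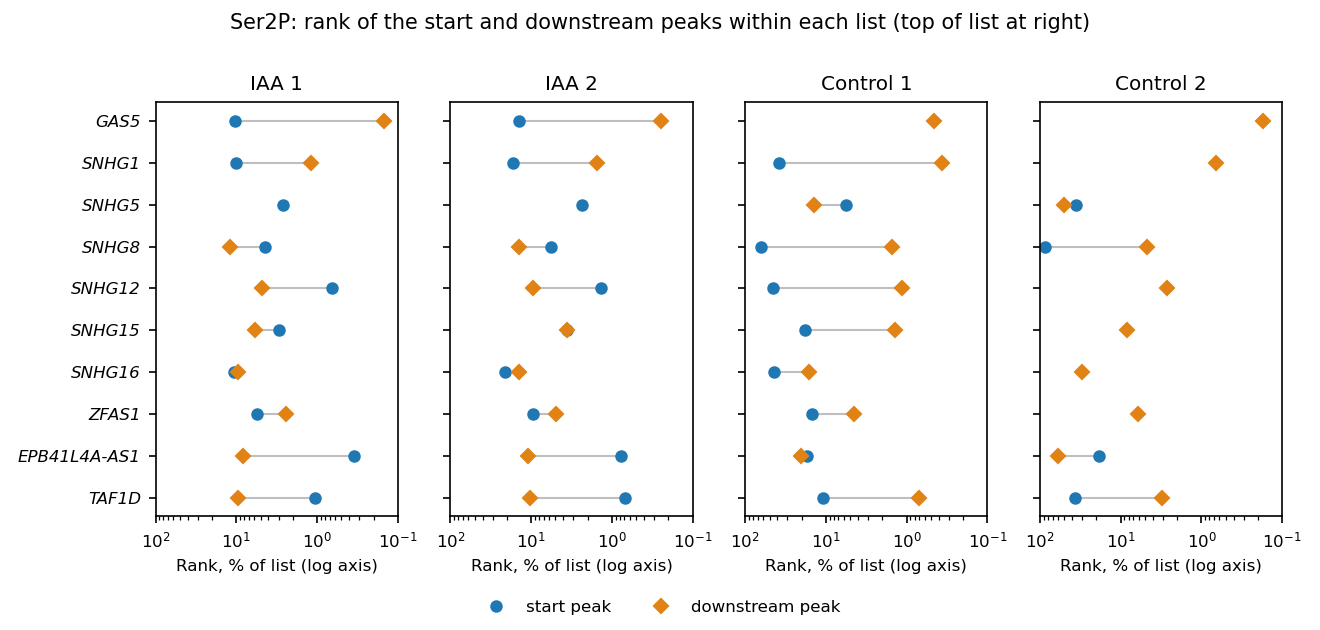
Rank of each host's Ser2P start peak (circles, within 1 kb of the start) and downstream peak (diamonds) as a percent of its own list, on a log axis with the top of the list at the right. In the IAA lists the circles of SNHG8, SNHG12, SNHG15 and TAF1D lie right of their diamonds; in the Control lists most diamonds lie right of the circles, and only 4 hosts have a circle in replicate 2.

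As a level within its own list, the hosts' downstream Ser2P peak stood at a median of the top 5.86% and 9.36% in IAA, against 1.46% and 5.39% in Control. Over all genes with such a peak the medians were 26.8% and 27.8% in IAA and 40.8% and 45.9% in Control. Among the 3853 genes with a downstream peak in all 4 libraries, 6 of 9 hosts held a lower place in both IAA libraries (32.9% of genes), and 1 of 9, EPB41L4A-AS1, held a higher one, 40.1% and 45.9% from the top in IAA against 50.5% and 65.2% in Control (34% of genes). Most of these hosts stood high in Control, with more room to fall than to rise, and the shares are over genes at all places. TAF1D stood at 45.8% and 43.6% in IAA, against 4.13% and 7.53% in Control. GAS5 stayed in the top 3% in all 4 libraries.

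Over the whole window of gene and flanks, Ser2P differences went both ways among the hosts, from −11.6 percentage points at SNHG8 to 6.79 at GAS5, with a median of −0.32, against 3.04 over all genes. GAS5, SNHG1 and SNHG15 were covered more in IAA (76% of 24172 genes were), and SNHG8 and EPB41L4A-AS1 less (0.53% of genes). Without Control replicate 1, 7 hosts were covered more, and without Control replicate 2, 7 were covered less. The window of SNHG8 was covered over 10.6% and 11.2% in IAA and 24.5% and 20.4% in Control. No host gained or lost a gene-body summit in both IAA libraries relative to both Control libraries, against gains in 15.1% and losses in 0.243% of 26363 genes, although 2 hosts lost one without Control replicate 2 and 2 gained one without Control replicate 1. Among the 4 hosts with a Ser2P start peak in all 4 libraries, the summit was farther along in TAF1D, 109 bp and 130 bp in IAA against 38 bp and 1 bp in Control (27.9% of genes). The SNHG5 summit lay farther upstream, at −7 bp and −75 bp in IAA against 42 bp and 40 bp in Control (18.7% of genes).

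The Pol II start peak of most hosts stood lower in the order of genes with IAA. Among the 10237 genes with a Pol II start peak within 1.5 kb of the start in all 4 libraries, 9 of 10 hosts held a lower place in both IAA libraries than in both Control libraries (35.8% of genes), and SNHG16 held a higher one (35.5% of genes). Most hosts stood high in Control, with more room to fall than to rise, whereas the shares of genes are over genes at all places. No share was taken among genes that stood as high. The wider zone was set after seeing the data, so that GAS5 could be read, whose peak lies 1084 bp to 1092 bp inside its annotated start in the replicated Pol II libraries. GAS5 stood at 44.3% and 40.5% from the top in IAA and at 2.63% and 4.08% in Control. In these libraries its peak overlaps the outer end of ZBTB37, which lies on the other strand and reaches 963 bp inside GAS5. Signal of GAS5 and of ZBTB37 cannot be told apart there. SNHG5, with the highest place of all hosts in both Control libraries, stood at 8.10% and 6.20% in IAA and 0.586% and 0.576% in Control. ZFAS1 stood at 20.6% and 22.5% in IAA and 1.82% and 1.81% in Control, and SNHG12 at 29.4% and 22.4% in IAA and 1.46% and 3.11% in Control. The groups were far apart at these 4 genes and close at EPB41L4A-AS1, with 26.7% and 17.2% in IAA and 15.4% in both Control libraries.

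SNHG16 went the other way. Its start peak ranked 117 of 18263 and 130 of 23609 in IAA, against 973 of 22898 and 819 of 27929 in Control, which is 0.850% and 1.17% from the top in IAA and 8.06% and 6.61% in Control. Pol II covered 82.0% and 83.8% of its start zone in IAA and 61.3% and 59.4% in Control, yet 0% of its downstream zone in both IAA libraries, against 8.98% and 23.9% in Control. It was first among the hosts in both IAA lists. SNHG8 was last among them in all 4.

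**Figure D4:**
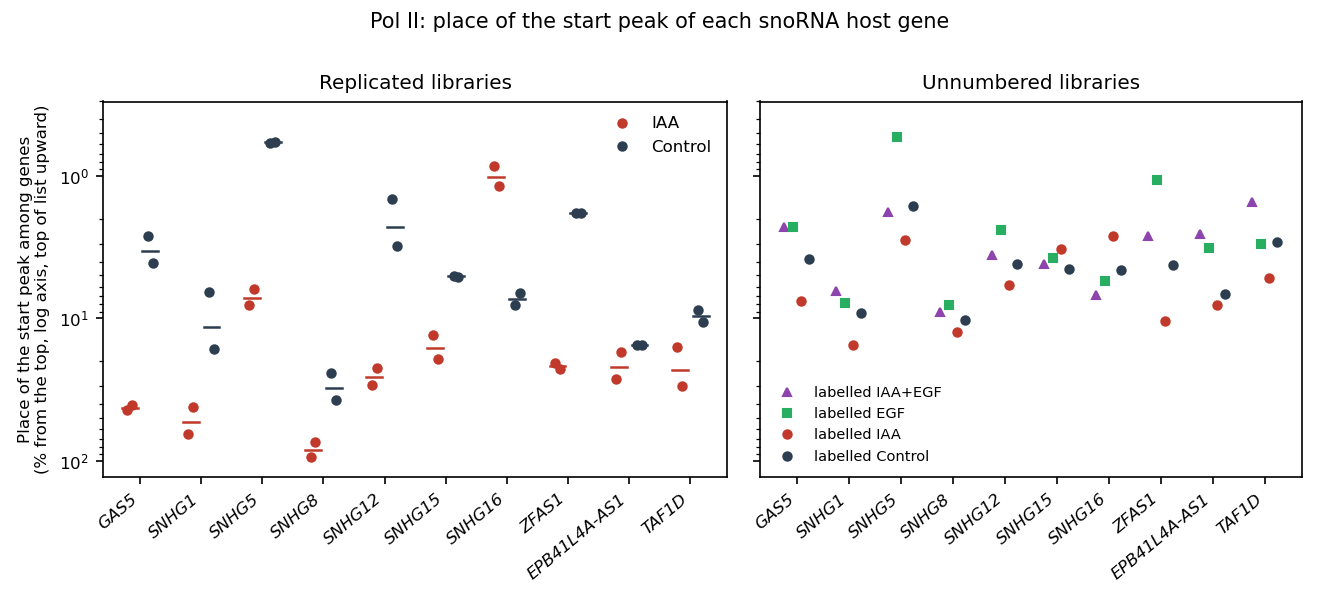
Place of the Pol II start peak among all genes with one, in percent from the top on a log axis with the top upward, for the replicated libraries (left, red IAA and dark Control, lines are means of 2) and the 4 unnumbered libraries (right). On the left, 9 hosts lie lower in IAA and SNHG16 higher; on the right, the libraries lie within a narrower range, from 0.533% to 15.4%.

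With peaks ordered by the authors' fold in place of −log10 q, 4 hosts held a lower place in both IAA libraries, and with the unnumbered libraries labelled IAA and Control added to their groups, 5 did. Estimated Pol II depth was 5.05 and 6.06 fragments per kb in IAA and 2.95 and 5.74 in Control, and its part in the places was not tested.

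Pol II peaks covered less of the window in both IAA libraries in 6 hosts (SNHG8, SNHG15, SNHG16, ZFAS1, EPB41L4A-AS1 and TAF1D) and more in 0, against 34.1% lower and 14.6% higher of 21439 genes. Within the gene alone, without flanks, 2 hosts were lower and 5 higher, and with the unnumbered libraries labelled IAA and Control added, 0 windows were lower. Past the gene end 5 of the 9 hosts with any Pol II peak there were lower and 0 higher (31.4% and 12.1% of genes, or 47% lower among genes covered in both Control libraries). ZFAS1 and SNHG5 had 0% of the downstream zone covered in both IAA libraries, against 23.6% in both Control libraries at ZFAS1 and 5.08% and 7.82% at SNHG5. At SNHG8 the shares were 0% and 4.66% in IAA and 15.6% and 16.6% in Control. At SNHG1 they were 4.02% and 19.3% in IAA and 21.8% and 24.3% in Control. In the start zone SNHG1, SNHG5 and SNHG16 were higher with IAA (18.2% of genes) and SNHG8, SNHG15, ZFAS1, EPB41L4A-AS1 and TAF1D lower (38% of genes).

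The highest-ranked Pol II summit within 1 kb of the start lay farther along the gene in both IAA libraries in 7 of 9 hosts, against 44.3% of 9850 genes. The median shift was 25 bp over the hosts and 26.5 bp over all genes tested, so the hosts' median was close to that of all genes. None of the 9 lay farther upstream (26.7% of genes). At SNHG1 it was larger, with summits 155 bp and 162 bp from the start in IAA and 28 bp and 27 bp in Control. SNHG16 had 95 bp and 125 bp in IAA and 51 bp and 79 bp in Control. SNHG5 and SNHG8 overlapped between groups, with 39 bp and 72 bp in IAA against 42 bp and 32 bp in Control at SNHG5. EPB41L4A-AS1 stood apart from the other hosts in all libraries, with its Pol II summit at 423 bp in both IAA libraries and at 388 bp and 418 bp in Control. With the unnumbered libraries labelled IAA and Control added, only 1 host, SNHG16, was farther along in every IAA library. No host gained (0.876% of genes) or lost (2.55%) a gene-body Pol II summit. By start peaks within 1 kb, GAS5 was the 1 host with the downstream peak ahead in both IAA (11.1% of genes) and both Control libraries (10.7%), but its peak at 1084 bp to 1092 bp falls outside that distance and outranked the downstream one in all 4 libraries. No host changed its leading end in favour of the start (1.09%, or 10.2% of genes with the downstream peak ahead in Control) or of the downstream side (1.41%). The downstream Pol II peak could be placed in 4 hosts, of which GAS5, SNHG1 and TAF1D were lower with IAA (34.4% of 1815 genes) and 0 higher (35.5%).

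**Figure D5:**
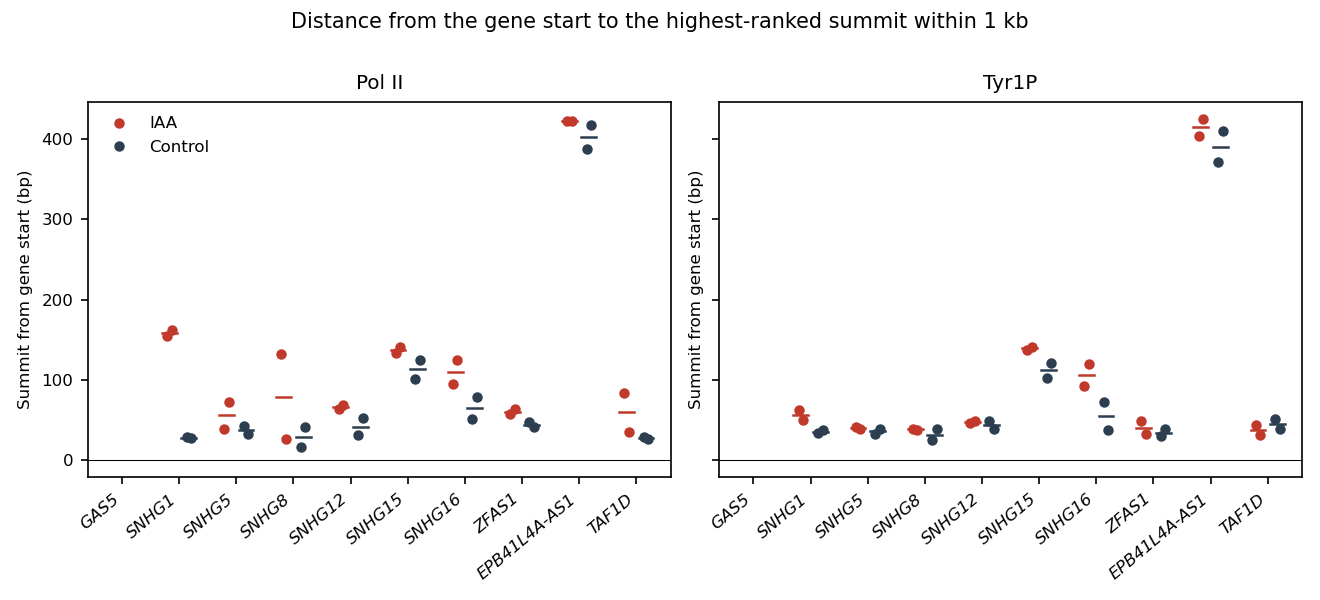
Distance in bp from the gene start to the highest-ranked summit within 1 kb of it, for Pol II (left) and Tyr1P (right), with red IAA points, dark Control points and lines for means of 2. GAS5 is not drawn, since for neither antibody did every library have a summit within 1 kb of its start. SNHG1 shows the widest gap for Pol II, and EPB41L4A-AS1 lies near 400 bp throughout.

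The downstream zone of Tyr1P was covered less in both IAA libraries in 5 hosts and more in 2 (35.3% and 12.7% of 7372 genes, or 51.3% lower among genes covered in both Control libraries). SNHG16 had 24.8% and 7.46% of that zone covered in IAA, against 56.4% and 58.0% in Control. EPB41L4A-AS1 had 0% in both IAA libraries and 11.4% and 14.2% in Control. SNHG1 and SNHG12 were higher, with 34.9% and 30.7% in IAA and 28.7% and 30.4% in Control at SNHG12. Over the window, 6 hosts were lower and 2 higher, SNHG1 and SNHG12 (42.8% and 15.2% of 23684 genes), and without flanks 3 were lower. No host gained (1.05% of genes) or lost (2.85%) a gene-body Tyr1P summit. By the same 1 kb limit, GAS5 was the 1 host with the downstream peak ahead in both IAA (13.1% of genes) and both Control libraries (12.8%), although its peak just beyond 1 kb ranked 573 and 736 in IAA and 976 and 966 in Control, ahead of the downstream one at 10573 and 8000 in IAA and 10401 and 8152 in Control. In all, 0 hosts changed their leading end towards the start (0.875%, or 6.86% of genes with the downstream peak ahead in Control) or away from it (1.4%). Among 9 hosts the downstream peak held a lower place in SNHG5 and SNHG16 (32.4% of genes) and a higher one in SNHG12, SNHG15, ZFAS1 and TAF1D (33.4%).

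At the start, Tyr1P places were lower in 3 hosts and higher in 3, which is near the background of 36.8% and 35% of 12335 genes. SNHG16, GAS5 and EPB41L4A-AS1 were the 3 that were higher. SNHG16 stood at 2.49% and 1.52% from the top in IAA and 5.45% and 11.1% in Control, the same direction as for Pol II. GAS5 stood at 4.44% and 5.86% in IAA and 6.92% and 6.79% in Control, while for Pol II it was lower with IAA. The Tyr1P peak of GAS5 lay 1107 bp and 1108 bp inside the gene in IAA and 1095 bp and 1091 bp in Control. Cover of the zone around its annotated start was 0% in both IAA libraries and 36.3% and 37.4% in Control. ZBTB37, which starts on the other strand 665 bp inside GAS5 and reaches 963 bp inside it, overlaps that zone and the edge of the GAS5 peak. The signal of the 2 genes cannot be told apart there. The Tyr1P start zone was covered more in SNHG1 and SNHG16 and less in 5 hosts (24.7% and 37.2% of genes). Its start summit was farther along in SNHG1, SNHG15 and SNHG16 of 9 hosts (43% of 11860 genes) and farther upstream in 0 (25%). The median difference was 6.5 bp over the hosts and 18.5 bp over all genes.

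The 4 unnumbered Pol II libraries have 1 sample each, so their values are set side by side with no test. The hosts' start peaks held median places of 3.12% from the top in the library labelled IAA+EGF, 3.11% in EGF, 6.72% in IAA and 4.35% in Control. GAS5 stood at 2.29%, 2.27%, 7.57% and 3.82% in that order of libraries. SNHG16 stood at 6.90%, 5.46%, 2.65% and 4.60%, and ZFAS1 at 2.64%, 1.07%, 10.4% and 4.24%. In the library labelled IAA, SNHG16 thus held its highest place and the other two their lowest.

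Compared with the unnumbered Control, the start summit was farther along in 9 of 10 hosts in the library labelled IAA+EGF (58.9% of genes), in 8 of 9 in EGF (59.2%) and in 4 of 10 in IAA (51.5%). The window was covered by a median of 13.2% in IAA+EGF, 10.5% in EGF, 14.7% in IAA and 16.7% in Control. The downstream zone of SNHG16 was covered over 12.7%, 0%, 40.2% and 49.3%. The values of 0% and 40.2% come from the libraries labelled EGF and IAA, whose titles and file names disagree, so which of them received IAA is uncertain.

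Other snoRNA hosts and the proteins that build snoRNPs were read in the same way. Past the gene end, Ser2P cover was lower with IAA in 11 and higher in 10 of 35 protein-coding hosts, lower in 1 (SNHG4, named after its value was seen) and higher in 4 of 12 other lncRNA hosts, and lower in 0 and higher in 5 of 7 genes of snoRNP proteins (all genes, 4.41% lower and 48.4% higher). The start zone was covered more in 31 of 36 protein-coding hosts, 9 of 10 other lncRNA hosts and 5 of 7 snoRNP genes, against 74.5% of all genes. In the whole window, the protein-coding host RPL13, a ribosomal protein gene, had 28.1% and 30.7% covered by Ser2P in IAA and 20.5% and 10.98% in Control. FBL, the methyltransferase of box C/D snoRNPs, had 13.0% and 11.9% in IAA and 5.03% and 2.35% in Control. The lncRNA host SNHG10 had 15.5% and 16.6% in IAA and 2.26% and 2.22% in Control.

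The Pol II start peak held a lower place with IAA in 9 of 11 other lncRNA hosts, in 20 of 34 protein-coding hosts and in 0 of 7 snoRNP genes, against 35.8% of all genes. The groups' Pol II windows did not overlap and were lower in 8 of 15, 22 of 45 and 5 of 11 genes of these lists, against 34.1% of all genes. SNHG19 had 2.89% and 7.17% of its window covered by Pol II in IAA and 9.56% and 20.5% in Control. They were higher in 1, 2 and 2 (14.6% of all genes), among them RPL13, with 19.3% and 24.2% in IAA and 12.9% and 14.2% in Control. For Tyr1P the windows were lower in 7 of 15, 26 of 45 and 3 of 11 genes, against 42.8% of all genes, and SNHG32 had 7.18% and 5.67% in IAA and 15.3% and 22.98% in Control.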

How the data were processed

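The authors deposited a narrowPeak list for each library, and peaks were thus called sample by sample. Per the submitters' processing notes, MACS2 2.2.7.1, deepTools 3.5.1, Picard 2.25.7, Bowtie2 2.3.4.1, Trim Galore 0.6.6 and build hg38 were used; their options and any use of the inputs as control are unstated. Each deposited list holds a score, a fold enrichment (ratio), a −log10 p-value and a −log10 q-value per peak. These are the authors' own values and were used only within their list. Depth, in fragments per kb, was estimated from the deposited fold and p.

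Gene ends came from RefSeq (GRCh38.p14), and strand and start from RefSeq's promoter table. Peaks overlapping a window by at least 1 bp counted, and ranks follow −log10 q. A place is a gene's position, in percent from the top, among genes with such a peak in every library compared. Exact permutation tests were two-sided (scipy 1.17.1, numpy 2.4.6, pandas 2.3.3, Python 3.11.15). The zone and summit measures were tested on simulated lists of similar length, in which every gene was given a start and a downstream peak. The Ser2P lists differ in both respects, so that test does not cover them. Genes named from the wider lists by window cover are among the 3 per list and antibody with the largest difference between non-overlapping groups. The members and lists were chosen with earlier results of these data known. Start-zone, downstream-zone, leading-end, start-place and summit-direction counts were added after seeing the data. Alternatives changed the flank, zone, q threshold, list length, ordering and libraries.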

Additional observations from a re-analysis of the deposited data

Results flagged for a closer look

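For cover of the window, the start zone and the downstream zone, in 15 cases both IAA libraries lay above both Control libraries for one antibody and below them for another at the same host. The share of all genes with such opposite calls was not taken. Taken singly, the start zone was higher for Ser2P in 74.5% of genes, and lower for Pol II in 38% and for Tyr1P in 37.2%. The Ser2P lists were also much longer in IAA than in Control. The values below are the difference between the 2 antibodies' IAA minus Control differences, in percentage points of covered length, and that difference was not tested. In the start zone, Ser2P was higher and Pol II lower at SNHG8 (63.2 points), SNHG15 (70.2), ZFAS1 (84.0), EPB41L4A-AS1 (25.1) and TAF1D (34.9). Ser2P was higher and Tyr1P lower there at GAS5 (73.5), SNHG5 (72.2), SNHG8 (46.9), SNHG15 (59.4) and EPB41L4A-AS1 (25.8). The GAS5 start zone is also overlapped by ZBTB37, which starts on the other strand 665 bp inside GAS5. At the SNHG5 start, Pol II was higher and Tyr1P lower (38.5). Past the gene end, Tyr1P was higher and Pol II lower at SNHG1 (14.2), and Tyr1P was higher and Ser2P lower at SNHG12 (8.26). Over the window, Ser2P was higher and Tyr1P lower at GAS5 (12.3), and Ser2P was higher and Pol II lower at SNHG15 (7.90).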

How the results depend on the processing

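Of 154 alternative values, 132 were labelled the same as the main value, 20 moved and 2 reversed. Some of the 132 were fixed in advance, so the tally is not a measure of robustness. None of the hosts' peaks shared a base with an input peak, so removing such peaks changed nothing. The replicate block could not change the summit differences or the Ser2P leading-end count. A count was the same if it equalled the main count or lay within a set ratio of it. A summit difference was the same if it lay within 1 standard deviation, taken between replicate libraries, of the main value. It was reversed if its sign changed. With lists of equal length, Pol II windows were higher in 1 host, Ser2P windows lower in 4 and a Ser2P body summit was lost in 1. With a flank of 2 kb, Pol II windows were higher in 1 host. Without flanks, Pol II was higher in 5 and lower in 2, Tyr1P lower in 3 and Ser2P lower in 1. With the unnumbered libraries labelled IAA and Control added, 0 Pol II windows were lower, 1 start summit was farther along and 5 start places were lower, and by fold 4 places were lower. The cause was not tested.

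Leaving out 1 library at a time gave 0 to 2 hosts with higher Pol II windows (2 without IAA replicate 1) and a Tyr1P summit difference of 5 to 13 bp (13 without replicate 2 of either group). Ser2P windows were higher in 3 to 7 hosts (7 without Control replicate 1) and lower in 2 to 7 (7 without Control replicate 2). Body summits were gained in 0 to 2 and lost in 0 to 2. Counts of hosts in these ranges could only stay or rise when a library was left out. The Ser2P summit difference ranged from −83 bp without Control replicate 2 to 71.3 bp, and was −23.5 bp without IAA replicate 2. These values come from 4 hosts, except for −83 bp. Leaving out Control replicate 2 let in all 9 hosts with a start peak in Control replicate 1, so −83 bp is over a different set of genes. Deviations of same-numbered libraries correlated at 0.205 for Pol II, 0.00994 for Tyr1P and −0.0803 for Ser2P. With the replicate block, 7 hosts had lower Ser2P cover past the end, as without it. This count could not be smaller, since groups that do not overlap also differ in each same-numbered pair. Estimated depth was lowest in Pol II Control replicate 1 (2.95 fragments per kb) and Ser2P Control replicate 2 (3.30), and its part was not tested.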
